A study of Mus musculus with 14 samples.

Results

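The subunits of the phagocyte NADPH oxidase were followed in blood cells of 14 mice. The 5 members were Cybb (gp91phox), Cyba (p22phox), Ncf1 (p47phox), Ncf4 (p40phox) and Rac2, taken by symbol as every non-control probe whose RefSeq identifier maps to one of them. They are 5 of 20022 genes with a symbol on the array and hold 6 of its 55681 probes, since Cyba has a second probe. All 6 probes were well above background on all 14 arrays and no spot of theirs was marked as an outlier, so every member was tested.

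Each mouse's RNA was labelled with Cy3 and put on its own one-colour Agilent array. The 8 SS mice met a hostile social environment in the third week after birth, and the 6 SI mice were kept in social isolation as juveniles. By their sex labels, 4 SS and 4 SI mice were male, and 4 SS and 2 SI mice were female. Every mouse went through place conditioning with a cocaine dose of 5 mg/kg, below the effective threshold, followed by extinction and withdrawal, and was bled 24 hours later. Cocaine is thus shared by all groups, no mouse without stress or without cocaine is among them, and strain and age are not given in the sources used here. Differences are SS minus SI on the log2 scale, tested with limma. The adjusted p (Benjamini-Hochberg) runs over 24033 probes, those detected well above background on 6 or more arrays, and a gene is called where it is under 0.05.

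Labelled males and labelled females were hybridised on separate slides, so slide and sex label cannot be told apart. Within the slides SI mice lie in other array columns than SS mice, so group and column cannot be told apart either. Against the labels, the signal of Y-linked Eif2s3y stood well above background in all 6 labelled females and in 0 of 8 labelled males. SI labelled male 4 stood apart, with correlations of 0.833 to 0.896 across tested probes to the other arrays of its group, while all other pairs within a group had 0.927 to 0.989. On its array 38.8% of non-control spots were well above background, against 43.2% to 47.7% on the other labelled male arrays. The members' results are therefore given with and without SI labelled male 4, as are the counts of each gene list over all mice and on each slide that rest on it. The cells are labelled PBMC and were prepared by lysing red cells. Between 16 and 17 of 18 neutrophil markers, 13 of 13 monocyte markers and 10 of 10 platelet markers were well above background on at least 1 array of each group. In such bulk RNA, fewer cells of a type and less RNA per cell cannot be told apart.

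The oxidase passes electrons from NADPH across a membrane to oxygen, and the superoxide it makes starts the respiratory burst with which neutrophils, monocytes and macrophages kill microbes. Cybb, the electron-carrying subunit, and Cyba, which stabilises it, form the membrane-bound flavocytochrome. On stimulation cytosolic subunits, among them Ncf1 and Ncf4, and the GTPase Rac2 move to it and switch it on. In humans, loss of the genes for the membrane or cytosolic subunits causes chronic granulomatous disease.

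Of the 2 membrane subunits, Cybb had the lowest SS minus SI difference of the 5 members over all mice and in labelled females. It was 2.18-fold lower in SS than in SI labelled females and was the only member called there. Its partner Cyba showed the smallest difference of the 5 members in every comparison but the difference between the slides, where Ncf1 did. Levels below are log2 signals relative to the 75th percentile of the same array, taken over the probes well above background on all arrays, and are not comparable between genes.

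The promoters of both membrane subunits are shown because they differ in whether they hold GAGGAA, a form of the purine-rich motif of Spi1 (PU.1). Spi1 is a transcription factor of myeloid cells whose own level is given below. The windows of 300 bases around the start of each gene are from RefSeq on GRCm38.p6, and lie on the minus strand at chrX:9469275-9469574 for Cybb and chr8:122432891-122433190 for Cyba. Capitals mark GAGGAA or its reverse complement TTCCTC, the form searched on both strands with no other motif. The shorter GGAA within it was not searched alone and stands unmarked in both windows.
Cybb: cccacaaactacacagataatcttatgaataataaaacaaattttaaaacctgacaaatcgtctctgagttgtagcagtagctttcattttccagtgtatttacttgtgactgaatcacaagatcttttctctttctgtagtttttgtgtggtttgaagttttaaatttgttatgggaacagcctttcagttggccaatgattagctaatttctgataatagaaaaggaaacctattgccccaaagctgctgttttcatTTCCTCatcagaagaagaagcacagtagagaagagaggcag
Cyba: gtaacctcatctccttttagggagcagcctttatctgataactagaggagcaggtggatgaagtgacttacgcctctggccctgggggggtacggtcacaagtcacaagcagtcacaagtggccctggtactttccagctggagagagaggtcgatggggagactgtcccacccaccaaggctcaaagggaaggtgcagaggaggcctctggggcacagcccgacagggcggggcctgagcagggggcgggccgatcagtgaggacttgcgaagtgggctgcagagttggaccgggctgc
The Cybb window holds 1 match, just after the start of the gene, and the Cyba window holds 0. The Ncf1 window on chromosome 5 also holds 0 matches, and for Ncf4 and Rac2 no promoter sequence was at hand to search. Whether the motif bears on the level of any member was not tested. Of 32851 promoters of the same length, 28.3% hold the motif, and no match says only that these letters are not in this window.

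On the slide of labelled females, Cybb stood at -2.64, -2.60, -2.30 and -3.37 in SS mice 20, 21, 22 and 23, against -1.60 and -1.61 in SI mice 27 and 28. Every SS array lay below both SI arrays, and SS mouse 23 was the lowest of all 14. On the slide of labelled males, Cybb stood at -2.37, -1.97, -2.36 and -1.96 in SS mice 1, 2, 3 and 01b, against -2.26, -1.77, -1.78 and -2.08 in SI mice 4, 5, 6 and 7. There the groups overlapped. The difference was -1.13 ± 0.29 (SE) in labelled females (limma adjusted p = 0.0491) and -0.19 ± 0.24 in labelled males (adjusted p = 0.612). Over all mice, with the slide as a term, it was -0.57 ± 0.22 (adjusted p = 0.147).

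The call of Cybb lay at the threshold. It was lost in 7 of 10 other settings (adjusted p between 0.0535 and 0.177) and on leaving out any 1 array other than SI labelled male 4 or 6 (adjusted p between 0.0571 and 0.207). The highest of these, 0.207 and 0.195, came without SI mouse 27 or 28, the 2 arrays on which the SI level in labelled females rests. The difference itself ranged from -1.27 to -0.91 over the 14 arrays left out in turn.

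Cyba stood at 4.32, 4.29, 4.28 and 4.11 in SS labelled females 20, 21, 22 and 23, against 5.01 and 4.36 in SI labelled females 27 and 28. The SS arrays lay below both SI arrays, the nearer of them, mouse 28, by less than the SS arrays differ among themselves. In SS labelled males 1, 2, 3 and 01b it stood at 3.97, 4.03, 3.99 and 3.85, against 3.61, 4.03, 3.91 and 4.27 in SI labelled males 4, 5, 6 and 7. The SI arrays spread on both sides of the SS arrays. The differences of -0.43 ± 0.24 in labelled females (limma adjusted p = 0.431), 0.01 ± 0.20 in labelled males (adjusted p = 0.982) and -0.17 ± 0.16 over all mice (adjusted p = 0.570) did not pass. The 95% confidence interval over all mice ran from -0.51 to 0.17.

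The second Cyba probe gave -0.39 ± 0.23 in labelled females, 0.09 ± 0.18 in labelled males and -0.11 ± 0.15 over all mice (limma adjusted p = 0.449, 0.782 and 0.717). Over the arrays its distance to the first probe varied with an SD of 0.0688. In labelled males the small difference of Cyba has no settled sign: it was below 0 in 4 of 10 other settings (lowest -0.17) and on leaving out SI labelled male 4 or 6 or SS labelled male 2 or 3 (lowest -0.11).

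The cytosolic subunits Ncf1 and Ncf4 were lower in SS mice on both slides without passing the test, and both passed over all mice and in labelled males once SI labelled male 4 was left out. Ncf1, the organiser that carries the other cytosolic subunits to the membrane, stood at -0.90, -0.90, -0.42 and -0.78 in SS labelled females 20, 21, 22 and 23, against -0.28 and 0.34 in SI labelled females 27 and 28. In labelled males it stood at -1.27, -1.20, -0.94 and -1.05 in SS mice 1, 2, 3 and 01b, against -1.75, -0.53, -0.25 and -0.33 in SI mice 4, 5, 6 and 7. The SS arrays lay below the SI arrays on both slides except for SI labelled male 4, which was the lowest array of all. Ncf1 had the widest spread of the 5 members, with a pooled SD of 0.434 within groups, against 0.219 for Cyba.

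The difference of Ncf1 was -0.78 ± 0.37 in labelled females, -0.40 ± 0.30 in labelled males and -0.55 ± 0.23 over all mice (limma adjusted p = 0.334, 0.407 and 0.197). Without SI labelled male 4 it was -0.74 ± 0.20 in labelled males and -0.76 ± 0.15 over all mice (adjusted p = 0.0184 and 0.00412). In the deposited value table its difference in labelled males was 0.37 ± 0.75. There its values span 4.10 on the log2 scale over the 14 arrays, against 2.09 in the scanner signals, a departure whose cause was not tested.

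Ncf4, the subunit that binds phosphatidylinositol 3-phosphate on phagosomes, stood at 2.76, 2.74, 2.81 and 2.69 in SS labelled females 20, 21, 22 and 23, against 3.81 and 3.44 in SI labelled females 27 and 28. The SS arrays formed a narrow band (SD 0.0483, n = 4) well below the SI arrays. In labelled males it stood at 2.29, 2.25, 2.48 and 2.23 in SS mice 1, 2, 3 and 01b, against 2.03, 2.74, 2.95 and 2.87 in SI mice 4, 5, 6 and 7. Here too SI labelled male 4 was the lowest and the other 3 SI arrays lay above every SS array. The difference was -0.88 ± 0.26 in labelled females, -0.34 ± 0.21 in labelled males and -0.55 ± 0.17 over all mice (limma adjusted p = 0.0817, 0.327 and 0.0728).

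Without SI labelled male 4, Ncf4 was called in all 3 comparisons, at -0.88 ± 0.17 in labelled females, -0.54 ± 0.15 in labelled males and -0.69 ± 0.13 over all mice (limma adjusted p = 0.0152, 0.0214 and 0.00279). Restricting the test to the 14522 probes well above background on all arrays also called it over all mice and in labelled females (adjusted p = 0.0379 and 0.0444).

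The GTPases differed in direction: Rac2, the form of blood cells, was lower in SS mice without passing, and Rac1, the form found in most cells, rose. Rac2 stood at 2.08, 2.09, 2.26 and 2.04 in SS labelled females 20, 21, 22 and 23, against 2.86 and 2.85 in SI labelled females 27 and 28. In labelled males it stood at 1.62, 1.35, 2.14 and 1.50 in SS mice 1, 2, 3 and 01b, against 1.20, 2.16, 2.40 and 2.25 in SI mice 4, 5, 6 and 7. The groups were apart in labelled females, and in labelled males SI mouse 4 was again the lowest array while SS mouse 3 came close to the other SI mice. The Rac2 probe is spotted 10 times per array, and its spots differed by an SD of 0.0258 to 0.0623, far less than the mice.

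The difference of Rac2 was -0.74 ± 0.32 in labelled females, -0.35 ± 0.26 in labelled males and -0.51 ± 0.20 over all mice (limma adjusted p = 0.273, 0.394 and 0.166). Without SI labelled male 4 it was -0.62 ± 0.19 in labelled males and -0.67 ± 0.14 over all mice (adjusted p = 0.0277 and 0.00734). A fit of the labelled female arrays alone called it there (adjusted p = 0.0397), together with Ncf4 (adjusted p = 0.0334) and without Cybb (adjusted p = 0.0909).

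Rac1 stood at 4.18, 3.86, 3.49 and 3.74 in SS labelled males 1, 2, 3 and 01b, against 3.33, 3.19, 2.53 and 2.90 in SI labelled males 4, 5, 6 and 7. In labelled females it stood at 3.82, 3.78, 3.97 and 4.06 in SS mice 20, 21, 22 and 23, against 3.16 and 2.57 in SI mice 27 and 28. All SS arrays lay above all SI arrays on both slides, as 8.4% of tested probes did on the slide of labelled males and 16.6% on the other. It rose by 0.91 ± 0.17 over all mice, 1.89-fold (limma adjusted p = 0.00521). It did not pass within labelled males (0.83 ± 0.23) or labelled females (1.04 ± 0.28), with adjusted p = 0.085 and 0.0574.

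**Figure D1:**
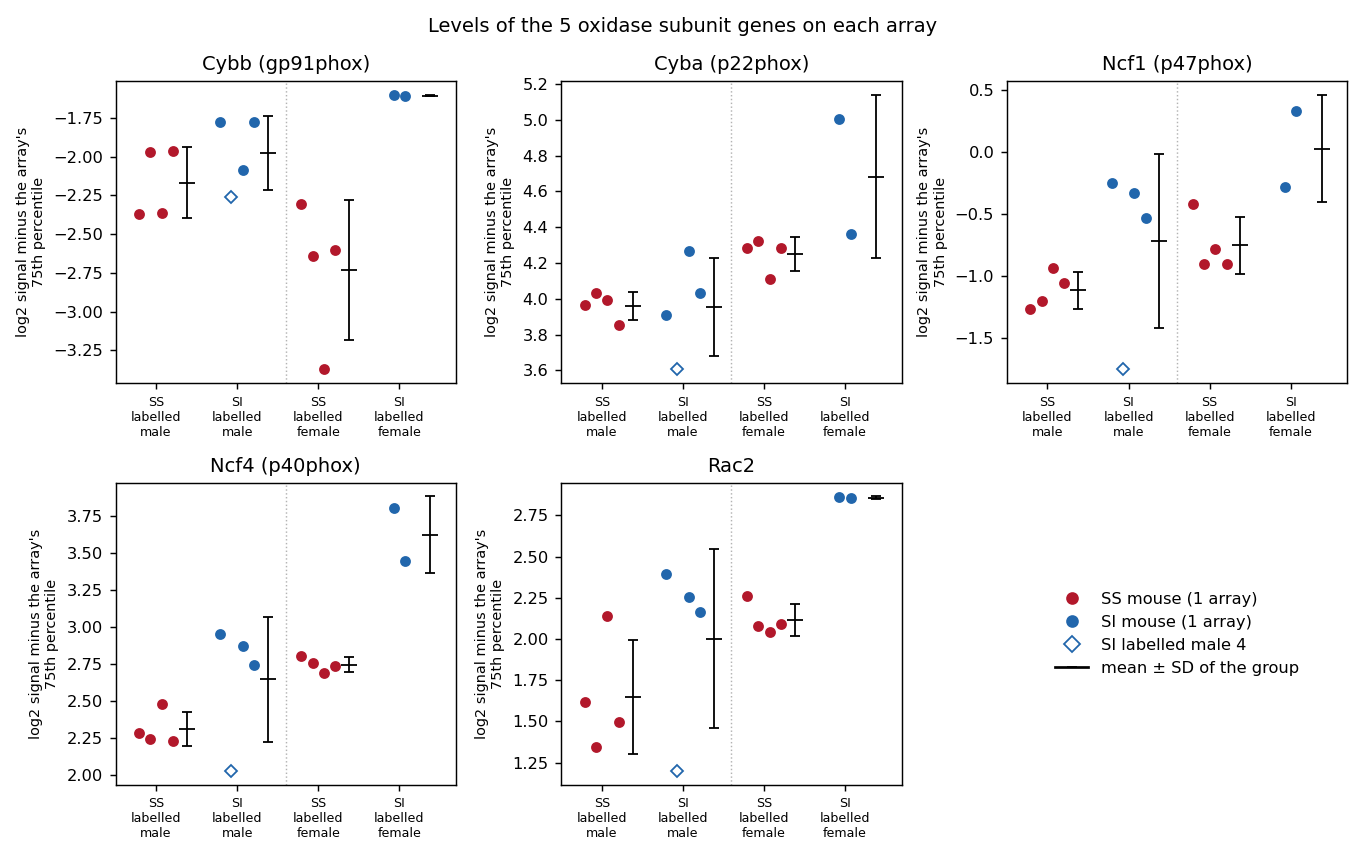
Scaled log2 level of each member on each array (y axis, log2 signal minus the 75th percentile of the array), for Cyba its brighter probe, in SS and SI labelled males left of the dotted line and SS and SI labelled females right of it. Points are mice, bars the mean ± SD; in every panel the SS labelled females lie below both SI labelled females, and the open diamond, SI labelled male 4, is the lowest SI labelled male.

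Taken as a group, the members showed 0 calls of 5 over all mice, where 7.98% of tested probes were called in either direction and 0.57% were called as lower. The unadjusted limma p was under 0.05 for 4 of 5, all but Cyba, and for 20.3% of tested probes. All 5 differences were below 0, with a median of -0.55, while 53.4% of tested probes were below 0 with a median of -0.04. Of the tested probes, 7.17% had a difference as low as that of Cybb or lower, 7.58% as that of Ncf4, 7.68% as that of Ncf1, 9.09% as that of Rac2 and 38.1% as that of Cyba. Cyba thus lay near the middle of the tested probes and the other members near their lower end.

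In labelled females 1 of 5 members was called, where 4% of tested probes were called in either direction and 0.816% as lower. All 5 members had every SS array below every SI array, as did 18.1% of tested probes. Their median difference was -0.78, against -0.11 over all tested probes, of which 59.1% were below 0. With 4 against 2 arrays, this separation is common on the slide.

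In labelled males 0 of 5 members and 0% of tested probes were called by limma, although 5706 probes (23.7%) had an unadjusted p under 0.05. No member had its groups apart. The median difference was -0.34, against 0.09 over all tested probes, and 4 of 5 members were below 0, against 45.7% of tested probes. Without SI labelled male 4, Ncf1, Ncf4 and Rac2 had every SS array below the other 3 SI arrays, as did 16% of tested probes.

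Leaving out SI labelled male 4 changed calls across the array, not only of the members. Without it 3 of 5 members were called as lower over all mice, against 6.05% of tested probes. In labelled males 3 of 5 were called as lower, against 17.2% of tested probes. In labelled females 2 of 5, Cybb and Ncf4, were called as lower, against 2.48% of tested probes. Cybb over all mice stood at -0.66 ± 0.21 without it (limma adjusted p = 0.0536), and Cyba at -0.25 ± 0.14 (adjusted p = 0.242). No other single array, left out in turn, gave a call of a member over all mice.

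**Figure D2:**
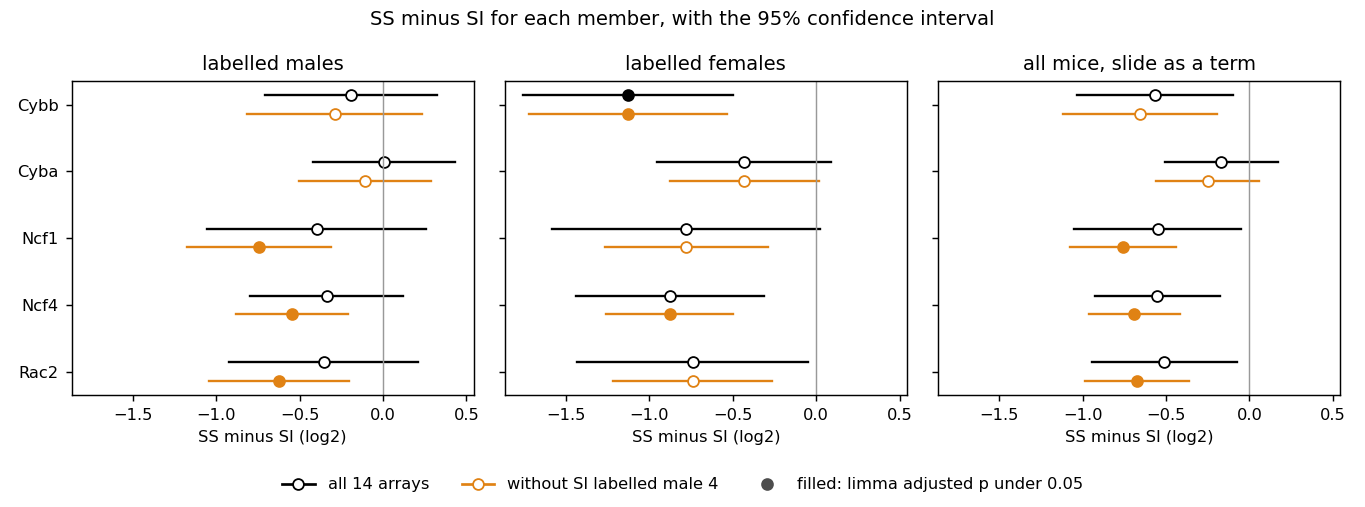
SS minus SI on the log2 scale (x axis) for each member in labelled males, labelled females and all mice, with 95% confidence intervals, from all 14 arrays (black) and without SI labelled male 4 (orange). Filled points have a limma adjusted p under 0.05: 1 member in labelled females with all arrays, and 3, 2 and 3 members in labelled males, labelled females and all mice without that array.

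**Figure D3:**
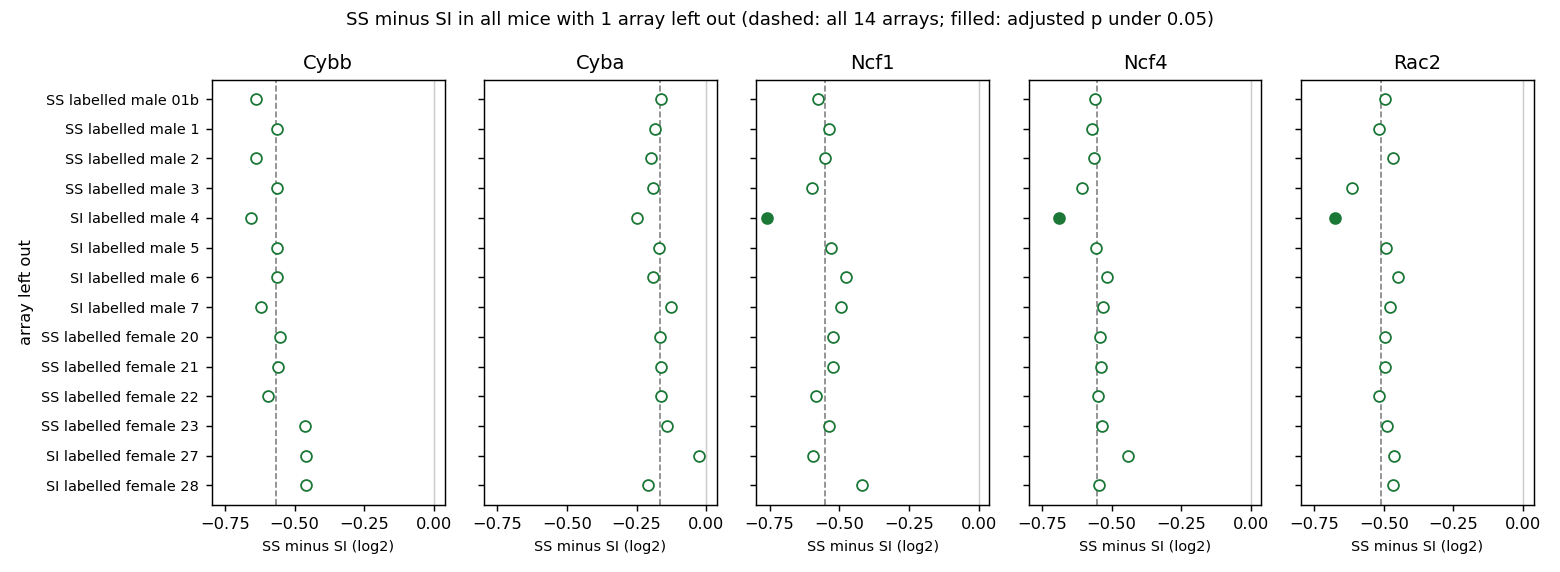
SS minus SI over all mice on the log2 scale (x axis) for each member with the array named on the y axis left out; the dashed line is the value from all 14 arrays. Only the points without SI labelled male 4 are filled (limma adjusted p under 0.05), for Ncf1, Ncf4 and Rac2.

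The difference between the slides in SS minus SI (labelled females minus labelled males) was tested directly and called for 0 of 5 members. Of the tested probes, 0.0458% were called, 0.0416% as lower and 0.00416% as higher (limma), and an unadjusted p under 0.05 was found for 3030 probes (12.6%) and 1 member, Cybb. It was -0.93 ± 0.38 for Cybb (adjusted p = 0.344), -0.54 ± 0.34 for Ncf4, -0.44 ± 0.31 for Cyba, -0.39 ± 0.42 for Rac2 and -0.38 ± 0.48 for Ncf1 (adjusted p between 0.515 and 0.715). The larger differences in labelled females are thus not shown to differ from those in labelled males.

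In the order of group means, SI labelled females were highest for all 5 members, overlapping the next group for Ncf1 alone. Cybb followed with SI labelled males (mean -1.97), SS labelled males (-2.17) and SS labelled females (-2.73), and each of these neighbours overlapped. For Ncf4 and Rac2 the order below SI labelled females was SS labelled females (means 2.75 and 2.12), SI labelled males (2.65 and 2.00) and SS labelled males (2.31 and 1.65), again with overlap between neighbours. Ncf1 had SI labelled males (-0.72) just above SS labelled females (-0.75), which overlapped, and SS labelled males (mean -1.11) lay apart below SS labelled females while overlapping SI labelled males through mouse 4. Cyba had SS labelled females (4.25) apart from SS labelled males (3.96), which overlapped SI labelled males (3.95).

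Among themselves, Ncf4 and Rac2 had the most alike pattern over the 14 arrays, with a root mean square difference of 0.149 in log2 level centred on each slide. Rac2 and Ncf1 followed with 0.198, and Cyba and Ncf1 were least alike with 0.408. Genes that were no members came closer still, as described by the same measure over 11492 genes. The closest were Fam241a to Cybb (0.173), Bak1 to Cyba (0.076), B3glct to Ncf1 (0.142), Znhit1 to Ncf4 (0.0771) and Slc9a3r1 to Rac2 (0.0665). Next in order came Dhx58 and Cib2 for Cybb, Sem1 and Fam89b for Cyba, Mrps15 and Mlst8 for Ncf1, Fam234a and Cotl1 for Ncf4, and Rps6ka1 and 9530068E07Rik for Rac2. To the mean of the members, Ugdh was closest (0.0837), then Ethe1, Lamtor4, Fam234a and Mfsd5. The median gene differed by 0.477 to 0.606 from a single member. The arrays share group, slide and cell composition, so these distances are a description.

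Neutrophil markers were lower with the members in labelled females and not in labelled males. In labelled females 9 of 15 tested neutrophil markers fell, where 0.816% of tested probes were called as lower. Among them were Lcn2 and Ltf, which code for granule proteins, and S100a8, and the median of the list was -2.37. Their summed level was 155 to 194 in SS and 490 to 744 in SI labelled females, on the slide where all members were lower in SS. In labelled males 0 of 15 were called (4 had an unadjusted p under 0.05), with a median of 0.26, where the members' median was -0.34, and sums of 260 to 296 in SS and 171 to 276 in SI mice. With SI labelled male 4 left out, 12 of 15 fell in labelled females, and 6 over all mice against 0 with all arrays. Of tested probes, 2.48% and 6.05% were then called as lower in these comparisons. In labelled males 2 of 15 then rose, where 22% of tested probes were called as higher. For 4 neutrophil markers, Ltf, Ngp, Camp and Lcn2, the difference between the slides was itself called as lower (limma adjusted p between 0.015 and 0.0353), as for 0.0416% of tested probes. Fcnb was well above background on none of the arrays, and Ly6g was matched to no probe.

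Summed monocyte markers reached 34.9 to 46.4 in SS and 43.2 to 80 in SI labelled females, and 40.2 to 55.5 in SS and 40.1 to 47.2 in SI labelled males. Over all mice 1 of 13 monocyte markers rose (F13a1) and 1 fell (Nr4a1), where 7.41% and 0.57% of tested probes did, with a list median of -0.43. Within the slides the median was -0.83 in labelled females, where 1 rose and 1 fell, and -0.16 in labelled males, where 0 were called. The members' medians there were -0.78 and -0.34. Once SI labelled male 4 was left out, 1 rose and 2 fell over all mice and on each slide, against the shares of tested probes given for the pathway lists below. All 10 platelet markers rose over all mice, with a median of 1.55 (limma adjusted p between 0.00474 and 0.007), and 7 of 10 rose in labelled females. Of tested probes, 7.41% and 3.19% were called as higher in these comparisons. All 10 platelet markers also rose within each slide once SI labelled male 4 was left out. Then 22% of tested probes were called as higher in labelled males and 5.5% in labelled females. Platelet sums were 419 to 737 in SS and 105 to 421 in SI labelled males, and 456 to 564 in SS and 131 to 169 in SI labelled females. SI labelled male 4 had the lowest neutrophil sum of its group (171) and the highest platelet sum (421, against 105 to 272 in the other 3). Its erythroid sum, 2538 against 481 to 853 in the other 3, was the highest of all arrays. The part of these cell types in the members' differences was not tested.

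Of the B, T, NK, dendritic, erythroid, eosinophil and basophil markers, 0 were called by limma in any of the 4 comparisons; an unadjusted p under 0.05 was most frequent for B cells in the difference between the slides (5 of 8). In labelled males without SI labelled male 4, 3 of 8 B cell, 2 of 4 dendritic cell and 1 of 3 eosinophil and basophil markers were called, where 22% of tested probes were called as higher and 17.2% as lower. Over all mice their list medians were 0.03 for B cells (8 tested), -0.61 for T cells (7), -0.58 for NK cells (6), 0.01 for dendritic cells (4), -0.85 for erythroid cells (6) and -0.12 for eosinophils and basophils (3). In labelled females they were 0.53, -0.36, -1.09, -0.10, -1.66 and -0.40 in the same order. NK sums there were 4.64 to 9.62 in SS and 18.7 to 20.0 in SI mice. Erythroid sums there were 487 to 1006 in SS and 1168 to 1964 in SI mice. B cell sums went the other way, at 27.3 to 36.2 in SS and 13.5 to 26.7 in SI mice. In labelled males the medians were -0.17 for NK and -0.27 for erythroid cells. The part of these lists in the members' differences was not tested.

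**Figure D4:**
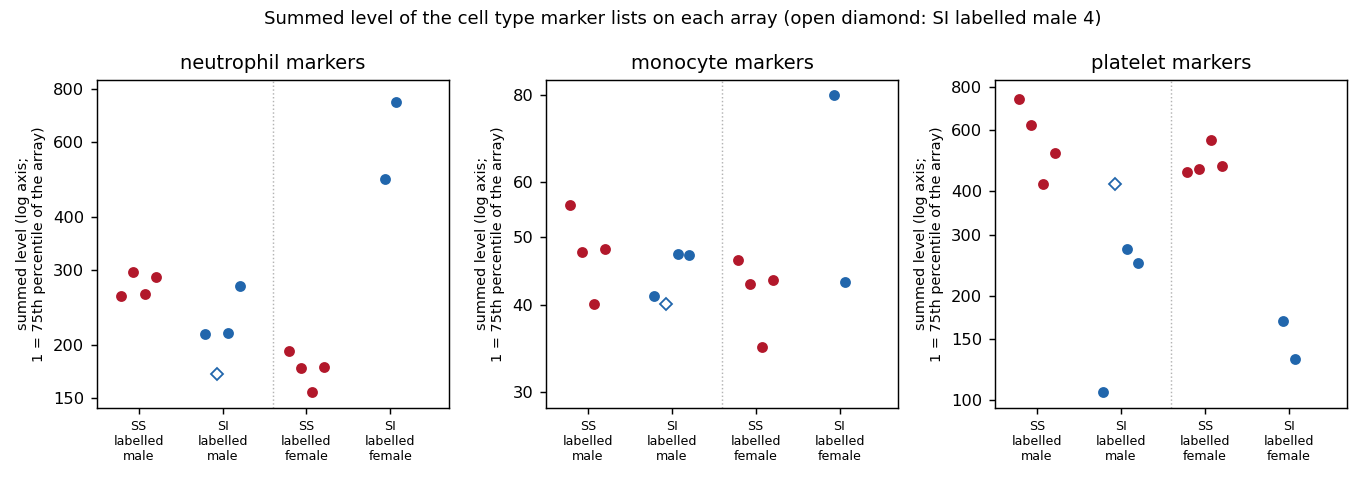
Summed level of neutrophil, monocyte and platelet markers (y axis, log scale, in units of the 75th percentile of the array) on each array, SS left of SI within each sex label. Neutrophil sums are 155 to 194 in SS and 490 to 744 in SI labelled females; SI labelled male 4 (open diamond) has the lowest neutrophil sum of its group and a platelet sum of 421.

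Around the members, genes of the oxidase pathway were read in 5 lists. Their counts without SI labelled male 4 stand against 10% of tested probes called as higher and 6.05% as lower over all mice. In labelled males these shares were 22% and 17.2%, and in labelled females 5.5% and 2.48%. Of 12 other genes of the oxidase family and its partners, 10 were matched to a probe and 4 were tested. Over all mice Rac1 was the only one called, 1 of 4 as higher against 7.41% of tested probes. On leaving out SI labelled male 4, 1 of 4 was called as higher over all mice and in labelled females, and in labelled males 2 were called as higher and 1 as lower. Cybc1, which helps the flavocytochrome to fold, stood at -0.06 ± 0.17 and Noxo1, an organiser of other oxidases, at -0.12 ± 0.25 (limma adjusted p = 0.869 and 0.817). Nox4, an oxidase of non-phagocytic cells, was well above background on the labelled male arrays and on no labelled female array. It stood at 1.16 ± 0.39 in labelled males and 0.54 ± 0.36 over all mice (limma adjusted p = 0.109 and 0.414). Rap1a, Nox1, Nox3, Noxa1, Duox1 and Duoxa2 were too dim to test, and Duox2 and Duoxa1 were matched to no probe.

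Among 19 tested genes that assemble the oxidase or control Rac, 2 rose over all mice and 0 fell, where 7.41% of tested probes were called as higher, with a list median of -0.21. When SI labelled male 4 was left out, 3 rose and 6 fell, both over all mice and in labelled males, while leaving out any other array gave 2 calls over all mice. In labelled females 1 rose with all arrays and 2 rose without SI labelled male 4. Prdx6, a peroxiredoxin with phospholipase activity that can enhance the oxidase, rose by 1.11 ± 0.19, 2.16-fold (limma adjusted p = 0.00474). Its level averaged 3.34 ± 0.32 in SS and 2.44 ± 0.43 in SI labelled males (SD, n = 4 each), and 3.34 ± 0.13 in SS (n = 4) and 1.93 ± 0.09 in SI labelled females (n = 2). All SS arrays lay above all SI arrays on both slides, as for 8.4% of tested probes in labelled males and 16.6% in labelled females. In labelled females alone it rose by 1.42 ± 0.29 (adjusted p = 0.0257), a call that was lost without any 1 of the 6 labelled female arrays (adjusted p between 0.0563 and 0.128) and in 2 of 10 other settings (0.1 and 0.111).

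Prkca, a protein kinase C isoform of the family that phosphorylates p47phox, rose by 1.01 ± 0.21 over all mice (limma adjusted p = 0.00819). The groups were likewise apart on both slides. Its call was lost in the deposited value table and without the slide term (adjusted p = 0.0925 and 0.239). Of the remaining 17 genes of the list, which include the Rac activators Dock2, Prex1 and Vav1, none was called over all mice with all 14 arrays, and 15 of 19 were below 0.

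Of 19 tested receptors and kinases that trigger the oxidase, 1 fell over all mice and 3 fell in labelled females, where 0.57% and 0.816% of tested probes were called as lower, with list medians of -0.57 and -0.91. These counts depend on single arrays. Leaving out SI labelled male 4 gave 12 calls over all mice, of which 10 fell and 2 rose; 7 then fell and 1 rose on the slide of labelled males, and 5 fell on that of labelled females. Leaving out any other array gave 0 to 2 calls over all mice (2 without SI labelled female 28), and in labelled females 0 to 3, with 0 without SS mouse 20, 21 or 23 or SI mouse 28. Fgr, a Src-family kinase of myeloid cells, averaged -0.09 ± 0.26 in SS and 0.47 ± 0.39 in SI labelled males (SD, n = 4 each), and -0.03 ± 0.19 in SS (n = 4) and 0.94 ± 0.71 in SI labelled females (n = 2). It fell by 0.72 on the log2 scale over all mice (limma adjusted p = 0.0428). The call was lost in 6 of 10 other settings (adjusted p between 0.0595 and 0.176) and on leaving out any 1 array but SI labelled male 4, SI labelled female 28 and SS labelled male 3 (adjusted p between 0.0625 and 0.133).

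The 3 receptors that fell in labelled females sense chemoattractants. Fpr2, a formyl peptide receptor, ranged from -1.96 to -0.54 in SS labelled females, against 0.87 and 1.12 in SI labelled females, a difference of -2.15 ± 0.43 (limma adjusted p = 0.0239). Fpr1, another formyl peptide receptor, ranged from -1.65 to -0.65, against 0.50 and 0.72, a difference of -1.78 ± 0.43 (adjusted p = 0.0387). Ltb4r1, a leukotriene B4 receptor, ranged from -0.62 to -0.23, against 0.75 and 1.15, a difference of -1.44 ± 0.26 (adjusted p = 0.0208).

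In labelled males these 3 receptors stood at -0.21 ± 0.35, -0.38 ± 0.35 and 0.08 ± 0.21, and their difference between the slides was not called (limma adjusted p = 0.25, 0.339 and 0.147). The call of Fpr2 was lost without any 1 of SI mice 27 and 28 and SS mice 20, 21 and 23 (adjusted p between 0.0573 and 0.124). That of Fpr1 was lost without any labelled female array or SS labelled male 2 or 01b (between 0.0565 and 0.198), and that of Ltb4r1 without SI mouse 28 or SS mouse 20, 21 or 23 (between 0.0515 and 0.117). Of 10 other settings, 2 lost the call of Fpr2 (highest adjusted p 0.116), 4 that of Fpr1 (0.218) and 3 that of Ltb4r1 (0.293).

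Of 6 tested enzymes that use or clear the products of the oxidase, 3 rose and 1 fell over all mice. Of tested probes, 7.41% were called as higher there and 0.57% as lower. The enzyme counts stayed at 3 and 1 over all mice without SI labelled male 4. They were then 3 and 1 in labelled males and 1 and 2 in labelled females, against 0 on each slide with all arrays. Cat, catalase, rose by 1.16 ± 0.29 (limma adjusted p = 0.0202), Sod1, the cytosolic superoxide dismutase, by 0.86 ± 0.17 (adjusted p = 0.00549) and Gsr, glutathione reductase, by 0.83 ± 0.18 (adjusted p = 0.0102). Sod2, the mitochondrial superoxide dismutase, fell by 0.67 on the log2 scale (adjusted p = 0.0102). Sod1 and Gsr had every SS array above every SI array on both slides, as did 8.4% of tested probes in labelled males and 16.6% in labelled females. Sod2 had every SS array below every SI array on both, as did 1.17% in labelled males and 18.1% in labelled females. The higher levels of Cat, Sod1 and Gsr, and of Rac1, Prdx6 and Prkca, stand beside the higher platelet sums of the same SS arrays given above, whose part in them was not tested. Cat overlapped in labelled males, where SI mouse 4, at 3.54, was the highest of its group. The call of Cat was lost without SI labelled male 6 or SI labelled female 27 (adjusted p = 0.0506 and 0.0629). Without the filter on dim probes Cat, Gsr and Sod2 all lost their calls (adjusted p = 0.0648, 0.0603 and 0.0899), without the slide term Cat and Gsr did (0.95 and 0.0612), and in the deposited value table Gsr did (0.0576). Gpx1 and Nos2 did not pass, and Mpo, the myeloperoxidase of neutrophil granules, was well above background on 5 arrays and was not tested.

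Of 8 tested transcription factors of phagocyte genes, 0 were called over all mice (4 had an unadjusted limma p under 0.05, as did 20.3% of tested probes). In labelled females 2 fell, where 0.816% of tested probes were called as lower. With the array of SI labelled male 4 left out, 4 fell over all mice, 3 on the slide of labelled males and 2 on the other, while leaving out any other array gave 0 calls in the first 2 of these comparisons and 0 to 2 in labelled females. Spi1 stood at -2.67, -2.60, -2.69 and -2.94 in SS labelled females 20, 21, 22 and 23, against -1.20 and -1.79 in SI labelled females 27 and 28. The groups were apart, as for 18.1% of tested probes, and the difference was -1.23 ± 0.30 (limma adjusted p = 0.0402). In labelled males it was -0.22 ± 0.24 (adjusted p = 0.569). A link between Spi1 and the level of Cybb was not tested. The call of Spi1 in labelled females was lost in 5 of 10 other settings (adjusted p between 0.0591 and 0.17) and on leaving out any array but SI labelled male 4 or 6 or SS labelled male 1 or 3 (between 0.0511 and 0.293).

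Cebpe, a factor of late granulocyte maturation, stood at -1.99, -1.91, -1.96 and -2.31 in SS labelled females 20, 21, 22 and 23, against -0.32 and 1.43 in SI labelled females 27 and 28. Its difference was -2.60 ± 0.48 (limma adjusted p = 0.021), and the SI arrays themselves lay 1.75 apart. The call was lost without SI mouse 28 or SS mouse 20, 21 or 23 (adjusted p between 0.0508 and 0.134) or the filter on dim probes (0.0625). In labelled males it was -0.02 ± 0.39 (adjusted p = 0.982). The lower levels of Spi1, Cebpe and the receptors stand beside the lower neutrophil sums of the same SS arrays given above, whose part in them was not tested.

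**Figure D5:**
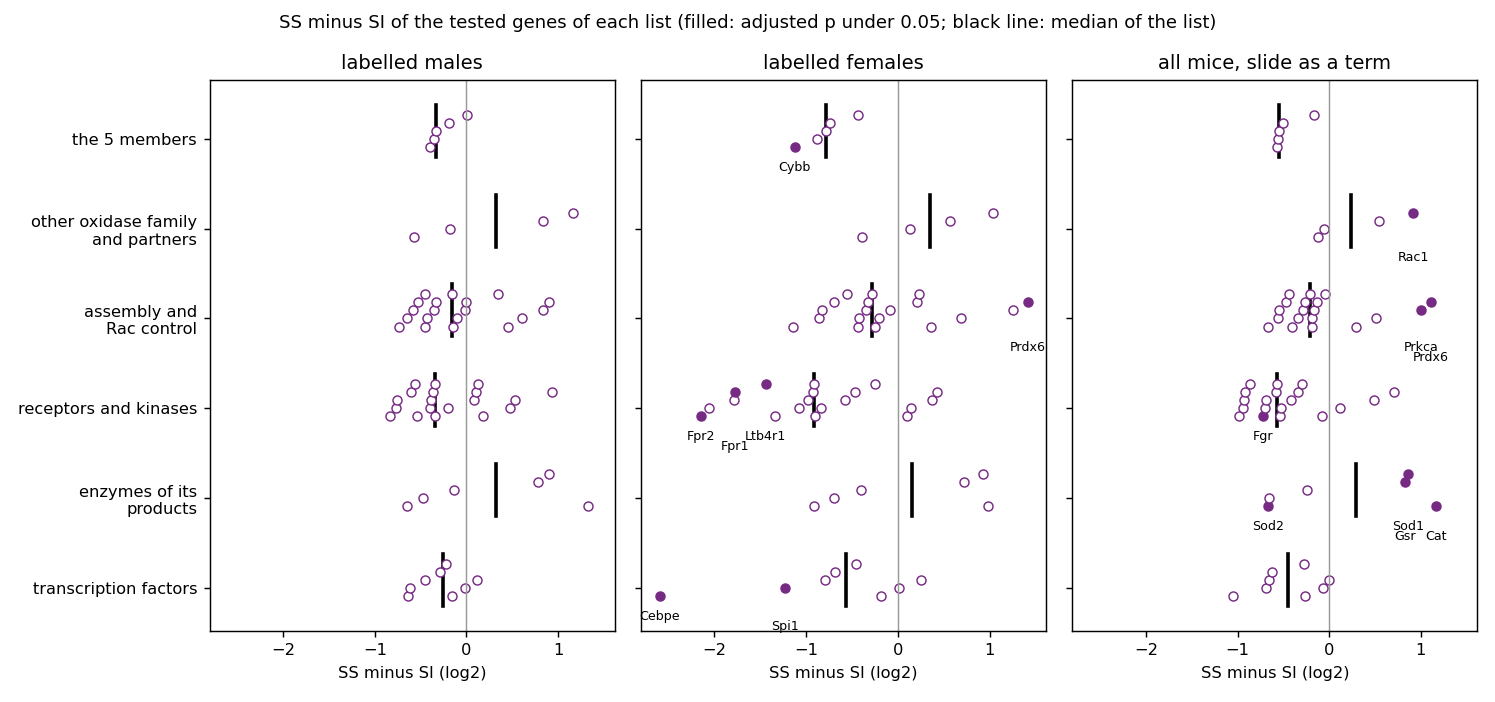
SS minus SI on the log2 scale (x axis) for the tested genes of the members and of 5 pathway lists (rows) in labelled males, labelled females and all mice; each point is a gene, filled and named where the limma adjusted p is under 0.05, and the black line is the median of the list. No gene of these lists is called in labelled males with all 14 arrays, though each list has calls there without SI labelled male 4, while Rac1, Prdx6, Prkca, Cat, Sod1 and Gsr lie to the right of 0 over all mice.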

How the data were processed

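The deposited scanner files hold fluorescence intensity, background-subtracted and detrended by the scanner software (Agilent Feature Extraction, version 10.7.3.1) per the file headers; the submitters' processing notes give 9.1. The other deposited columns used are flags for controls, background and outliers, per the file headers. Outlier spots were left out, except where a probe had no other spot. Spots of a probe were averaged as log2 processed signal, and each array was scaled by its 75th percentile over the 14522 probes detected well above background everywhere. limma 3.58.1 (R 4.3.3) fitted group and slide over all mice, and 4 groups within the slides. The authors also deposited a log2 value table, used as an alternative, for which the sources used here give no normalization. RefSeq symbols matched 26425 of 31063 RefSeq-type identifiers. The array files name build mm9 and the RefSeq table GRCm38.p6, so no probe positions are given. For a gene with several tested probes, the brightest one stands for it.

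The members, lists and tests were chosen with earlier results of these data known. The members are always named, other list genes where their adjusted p is under 0.05 in any comparison (at most 6 a list), and of likeness the closest 3 (5 for the mean). 1 further gene of the oxidase list is not reported here. Further genes named for context were chosen after their values were seen. The median spot signal took the place of the mean spot signal planned for normexp (offset 50). Alternatives changed the scaling, background, filter, slide term and array row, or left out 1 array. The code was tested on simulated data. Nothing pairs mice across the groups. The number of arrays limits the precision.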

Additional observations from a re-analysis of the deposited data

How the results depend on the processing

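The main limits are the 2 SI labelled females, SI labelled male 4, and slide and array column, which cannot be told apart from sex label and group. Over the alternatives other than leaving out an array, 544 values stayed the same. For a gene this means the same direction and side of the threshold, and for a count a change of at most 1.5 times. Among the rest, 38 gene values lost and 4 gained a call, 7 turned sign, and 54 counts moved by over 1.5 times or from 0. The cause was not tested. Scaling by the 75th percentile of all probes turned the median of all tested probes in labelled males to -0.09, against 0.09, and in labelled females to 0.05, against -0.11.

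Over all mice, 1918 probes were called, against 1245 with normexp, 1125 with no filter on dim probes and 1147 with no slide term; 0 members were called, against 1 with probes detected on all arrays. In labelled males, 0 probes were called, against 2 with the 75th percentile of all probes, 1 with the median, 2 with quantile normalization and 174 in the deposited table. In labelled females, 962 probes were called, 766 as higher and 196 as lower, against 414 with normexp (286 and 128), 52 with no filter (18 and 34), 461 in the deposited table, 543 with the array row as a block and 1706 from the arrays of that slide alone. There 1 member was called, against 0 with the 75th percentile of all probes, the median, quantile normalization, no filter, the deposited table or the array row, and 2 with probes detected on all arrays or from that slide alone. The difference between the slides had 11 called probes, against 17 with quantile normalization and 36 in the deposited table.

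In labelled males, Cyba (0.01) turned to -0.17 with the 75th percentile of all probes, -0.11 with quantile normalization, -0.0074 with normexp and -0.0316 in the deposited table. Its second probe turned to -0.0917 with the 75th percentile of all probes and to -0.064 with quantile normalization. Ncf1 turned to 0.37 in the deposited table.

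Leaving out 1 array at a time gave 1488 to 3864 called probes over all mice, 0 to 9424 in labelled males, 43 to 1919 in labelled females and 1 to 664 for the difference between the slides. Called members numbered 0 to 3 over all mice and in labelled males, 0 to 2 in labelled females and 0 for the difference between the slides. In labelled females the split turned to 68 higher and 115 lower without SI mouse 27, 22 and 32 without SI mouse 28, and 16 and 27 without SS mouse 23. The highest probe counts came without SI labelled male 4. Cyba in labelled males ranged from -0.11 to 0.11, and its second probe from -0.028 to 0.14 there and from -0.19 to 0.0303 over all mice.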
